A study of Mus musculus with 8 samples.

Results

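Lgr4, Lgr5 and Lgr6 are the receptors for R-spondins, and Znrf3 and Rnf43 are the pair of membrane E3 ubiquitin ligases on which those receptors act. These 5 genes were taken from a count table of mouse cells as the rows whose Ensembl identifier belongs to each gene. No value served as a filter, but the genes were chosen with earlier results of these data known. They are 5 of the 46078 genes listed, and each was among the 17016 genes with enough counts to be tested. RNA was sequenced from flow-sorted epidermal cells that carried the lineage mark of an Lgr5 reporter, labelled Lgr5 hair follicle stem cells, in 8 libraries. Of these, 4 came from Treg-depleted and 4 from Treg-sufficient mice (Treg, regulatory T cell), with 2 libraries of each condition in each of 2 experiments. Experiment 1 holds replicates 1 and 2, and experiment 2 replicates 3 and 4, of each condition.

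Every group carried the same strain label, Lg5-egfp-ires-creert2/R26-tdTomato, and every group had a skin injury. A reporter allele of that design is a knock-in at the Lgr5 gene itself, so the Lgr5 counts come from mice with an altered Lgr5 locus in both conditions; its effect on the count was not tested. The sources used here do not give how the regulatory T cells were removed, the kind and time of the injury, the age and sex of the mice or whether replicates were separate animals. The p-values therefore measure the spread between these libraries, part of which may be technical.

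R-spondins are secreted proteins that amplify Wnt signalling. In their absence Znrf3 and Rnf43 ubiquitinate Frizzled, the Wnt receptor, and it is removed from the cell surface. An R-spondin that binds both an Lgr receptor and a ligase takes the ligase off the membrane, and Frizzled stays. In mouse skin Lgr5 marks stem cells of the lower bulge and hair germ, Lgr6 marks cells above the bulge and in the isthmus, and Lgr4 is found more widely in epithelia. Lgr5, Znrf3 and Rnf43 are themselves known targets of Wnt signalling in several mouse tissues.

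The libraries held 22330729 to 29975347 counts over genes. All 10 follicle stem cell and basal keratinocyte markers had counts, with a summed level of 15800 to 33400 CPM (a count divided by the library size, scaled to a common total with TMM factors, which normalize between libraries). The 8 T cell markers together reached 1.38 to 1.86 CPM in Treg-depleted libraries and 0.8 to 1.93 CPM in Treg-sufficient libraries, so the sorted cells offer no check of the depletion. Counts were recorded for 18605 genes in Treg-depleted replicate 2 and 19593 in Treg-sufficient replicate 3, against 21720 to 23062 in the other 6 libraries. Xist, a transcript of the inactive X chromosome, was at 72 CPM in Treg-depleted replicate 2 and 2710 CPM in Treg-sufficient replicate 2, against at most 2.26 CPM in the others. Protein-coding genes of the Y chromosome summed to 16.5 CPM in Treg-sufficient replicate 2, against 332 to 434 CPM in the other 7 libraries. Calls on a named gene that changed without these libraries are given beside it. Treg-depleted replicate 2 and Treg-sufficient replicate 2 are called below the 2 libraries with Xist reads, although the others held a few. Both are in experiment 1, so the libraries compared there were unlike in their X and Y reads.

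All 5 genes were expressed in every library, with 876 to 18193 counts each, at which counting error was at most 3.38% of a value. Levels of different genes were compared only as TPM (the count divided by the gene's exon length, as a share of the library). Lgr4 averaged 278 ± 106 TPM, Lgr6 160 ± 34.5 TPM and Lgr5 150 ± 33.9 TPM over all libraries (SD, n = 8). Rnf43 averaged 26.9 ± 3.86 TPM and Znrf3 26.7 ± 5.03 TPM (SD, n = 8). Lgr6 and Lgr5 did not differ beyond their spread, and neither did the ligases: Lgr6 lay above Lgr5 in 5 of the 8 libraries. The 3 receptors summed to 393 to 773 TPM in Treg-depleted libraries and 513 to 634 TPM in Treg-sufficient libraries, and the ligases to 41.5 to 63.9 TPM in Treg-depleted libraries and 47.1 to 55.7 TPM in Treg-sufficient libraries. Receptor transcripts thus outnumbered ligase transcripts 8.32 to 13.5 times in Treg-depleted and 9.83 to 12 times in Treg-sufficient libraries, ranges that overlap.

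Lgr4, the most abundant of the receptors, had no uniform difference between the conditions but the widest spread between libraries of the 5 genes. Its gene (ENSMUSG00000050199) lies on the plus strand at chr2:109917647-110014257 (GRCm38). Lgr6 (ENSMUSG00000042793) lies on the minus strand at chr1:134983301-135105276. The 250 bases before each of these starts are shown because these are the 2 members with the smallest p-values in the comparisons below. Both were read 5′ to 3′ on the gene's strand from RefSeq (GRCm38.p6), at chr2:109917397-109917646 and chr1:135105277-135105526, and capitals mark CCAAT.
Lgr4: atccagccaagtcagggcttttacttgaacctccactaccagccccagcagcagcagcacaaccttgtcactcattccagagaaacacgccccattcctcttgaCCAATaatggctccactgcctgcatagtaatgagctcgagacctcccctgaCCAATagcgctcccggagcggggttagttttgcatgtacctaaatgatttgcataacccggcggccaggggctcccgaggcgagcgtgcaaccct
Lgr6: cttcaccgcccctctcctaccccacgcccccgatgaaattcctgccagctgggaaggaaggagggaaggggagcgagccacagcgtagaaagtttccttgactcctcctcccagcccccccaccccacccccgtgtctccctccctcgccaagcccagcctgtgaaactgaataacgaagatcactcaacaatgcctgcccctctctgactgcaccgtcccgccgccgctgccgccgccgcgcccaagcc
Both strands were searched for CTTTG, the core of the site bound by the TCF/LEF factors of Wnt signalling, for the longer CTTTGAT that contains it, and for CCAAT, a common promoter element. The Lgr4 stretch held CCAAT in 2 places on the gene's own strand, ending at -142 and -91 from the start, and neither TCF/LEF string. The Lgr6 stretch held none of the 3 strings. Among 32851 promoters of the same length, 48.6% held CTTTG, 3.2% CTTTGAT and 33.8% CCAAT on either strand. G and C made up 55.6% of the Lgr4 and 65.2% of the Lgr6 stretch, against a median of 52.4%. Of the 5 genes, 3 had a promoter entry: Rnf43 had 2, both without any of the 3 strings, while Lgr5 and Znrf3 are named only.

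In experiment 1, Lgr4 had 249 and 267 CPM in Treg-depleted libraries, against 380 and 401 CPM in Treg-sufficient libraries. Experiment 2 gave 593 and 646 CPM in Treg-depleted libraries, against 533 and 593 CPM in Treg-sufficient libraries. The Treg-depleted libraries were thus the lower ones in experiment 1, with no overlap, while in experiment 2 the conditions met at 593 CPM. The log2 fold change within experiment 1 was -0.60 (SE 0.14, 95% interval -0.92 to -0.27, unadjusted p = 0.00289), a level 0.661 times that of Treg-sufficient libraries. It did not pass edgeR's quasi-likelihood test after Benjamini-Hochberg adjustment over all genes (adjusted p = 0.127), nor did any of the other 4 members, where 0.599% of all tested genes passed. DESeq2, which passed 722 genes in place of 102, gave -0.61 (adjusted p = 0.00332). An unadjusted p under 0.05 in the lower direction was found in 6.39% of all genes, and in Lgr4 alone among the members. A non-overlap in the lower direction within experiment 1 occurred in 19.1% of all genes. Since the libraries are bulk RNA, fewer cells that express a gene and less of its RNA per cell cannot be told apart.

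Within experiment 2 the log2 fold change of Lgr4 was 0.14 (SE 0.14, 95% interval -0.19 to 0.46, edgeR adjusted p = 1). The effect in experiment 1 minus that in experiment 2 was -0.73 on the log2 scale (SE 0.20, 95% interval -1.19 to -0.27, unadjusted p = 0.00618, edgeR adjusted p = 0.511). Of the 5 members, 0 passed this test of the difference after adjustment, as did 0% of all genes; 943 genes, or 5.54%, had an unadjusted p under 0.05 (3.58% in the direction of Lgr4), and DESeq2 passed 179 genes. Over both experiments, Lgr4 averaged 439 ± 210 CPM in Treg-depleted libraries and 477 ± 103 CPM in Treg-sufficient libraries (SD, n = 4 each), with a log2 fold change of -0.23 (SE 0.16, 95% interval -0.59 to 0.13, edgeR adjusted p = 0.759).

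Lgr4 was higher in experiment 2 than in experiment 1. Lgr4 averaged 591 ± 46 CPM in experiment 2 and 324 ± 77.2 CPM in experiment 1 (SD, n = 4 each), and all 4 libraries of experiment 2 lay above all 4 of experiment 1. A difference without overlap in this direction was seen in 7.42% of all genes. The log2 fold change of experiment 2 over experiment 1 was 0.90 (SE 0.16, 95% interval 0.54 to 1.25, edgeR adjusted p = 0.0451), or 1.86-fold. Lgr4 was the 1 member of 5 that passed this test, where 1.57% of all genes passed. The call lay close to the threshold of 0.05 and was lost with most omissions of a single library. It was lost without Treg-depleted replicate 1, 2, 3 or 4 (adjusted p 0.0843, 0.0817, 0.113 and 0.156) and without Treg-sufficient replicate 2, 3 or 4 (0.119, 0.0527 and 0.0615), and also without the 2 libraries with Xist reads (0.204) or the 2 with the fewest genes detected (0.0899). The fold change stayed between 0.79 and 1.01 on the log2 scale in these fits.

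Of the markers of follicle regions, some lists moved with Lgr4 and another moved the other way. In experiment 1 the 4 isthmus and upper follicle markers, all with counts, summed to 461 and 937 CPM in Treg-depleted libraries and to 1380 CPM in both Treg-sufficient libraries. In experiment 2 they summed to 1490 and 1700 CPM in Treg-depleted libraries and 1670 and 1770 CPM in Treg-sufficient libraries. Lrig1, a stem cell gene of the isthmus and one of these 4, had 275 and 286 CPM in Treg-depleted libraries of experiment 1, against 442 and 486 CPM in the Treg-sufficient ones. Its log2 fold change there was -0.72 (SE 0.19, edgeR adjusted p = 0.168), and none of the other 3, Krt79 (0.462), Plet1 (0.458) and Gata6 (0.918), passed after adjustment either. The 10 follicle stem cell and basal markers summed to 15800 to 20100 CPM in experiment 2 and 19700 to 33400 CPM in experiment 1, so their mean was lower in experiment 2, where Lgr4 was higher. Between experiments the lower follicle and hair germ markers summed to 653 to 881 CPM in experiment 2 and 451 to 638 CPM in experiment 1, and the 6 melanocyte markers to 128 to 392 CPM in experiment 2 and 58.6 to 86.3 CPM in experiment 1. The part of any of these in the Lgr4 difference was not tested.

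**Figure D1:**
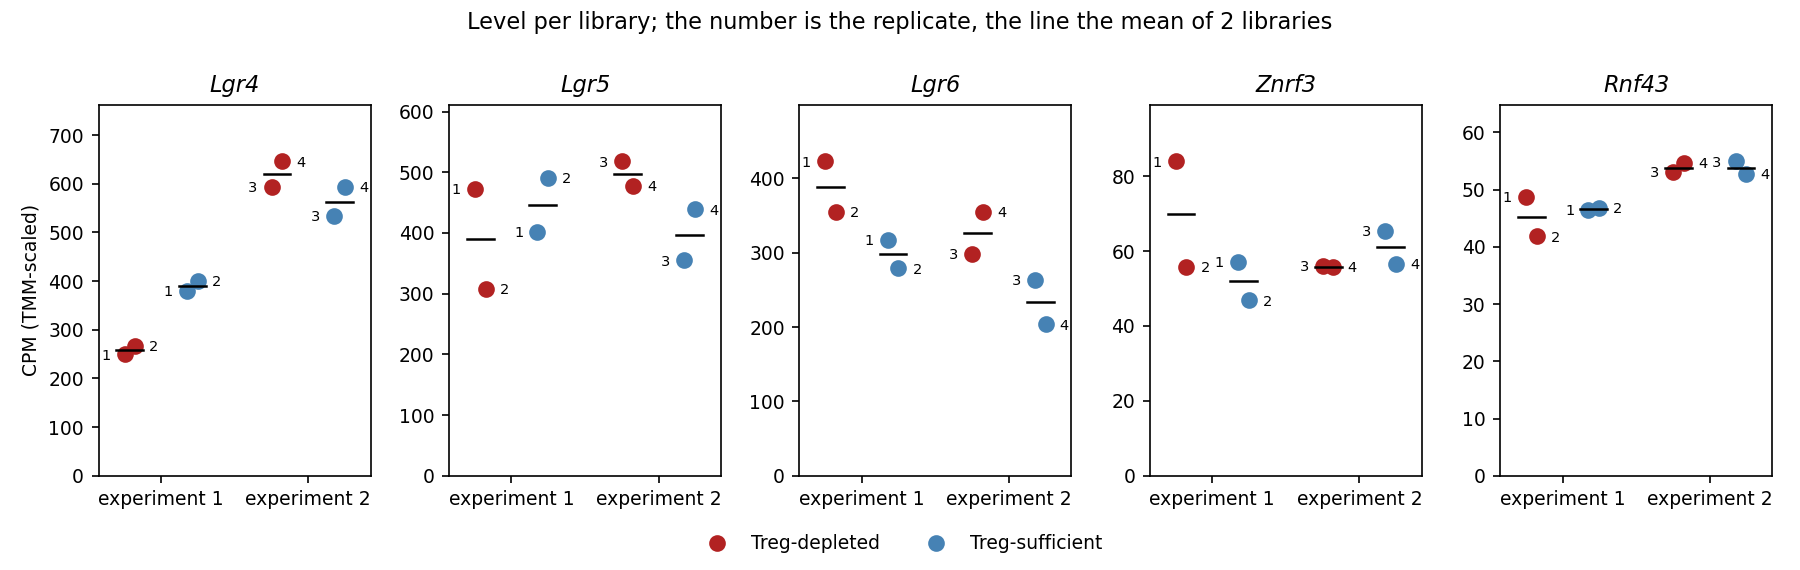
Level of each gene in CPM (linear axes from 0) in each of the 8 libraries, by experiment; red points are Treg-depleted and blue points Treg-sufficient libraries, the number beside a point is the replicate and the bar is the mean of 2 libraries. Lgr4 lies at 249 to 401 CPM in experiment 1 and 533 to 646 CPM in experiment 2, and Lgr6 is higher in the Treg-depleted libraries of each experiment.

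Lgr6, the receptor of the upper follicle, was the 1 member whose Treg-depleted libraries lay above the Treg-sufficient ones in both experiments. In experiment 1 it had 423 and 355 CPM in Treg-depleted libraries, against 318 and 279 CPM in Treg-sufficient libraries. In experiment 2 it had 298 and 355 CPM in Treg-depleted libraries, against 264 and 204 CPM in Treg-sufficient libraries. The conditions did not overlap within either experiment, a pattern shown in this direction by 3.72% of all genes. Across experiments they did overlap, since Treg-depleted replicate 3 lay below Treg-sufficient replicate 1.

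Over both experiments Lgr6 averaged 358 ± 50.9 CPM in Treg-depleted libraries and 266 ± 47.4 CPM in Treg-sufficient libraries (SD, n = 4 each). With the experiment as a term, the log2 fold change was 0.43 (SE 0.13, 95% interval 0.15 to 0.72, unadjusted p = 0.00736), or 1.35-fold. The difference did not pass after adjustment (edgeR adjusted p = 0.695). None of the 5 members passed in this comparison, and 0% of all genes did in edgeR; 1200 genes, or 7.05%, had an unadjusted p under 0.05, limma-voom passed 0 genes and DESeq2 passed 85, with an adjusted p of 0.133 for Lgr6. Among the members Lgr6 alone had an unadjusted p under 0.05, in a direction shared at that level by 3.46% of all genes.

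The difference in Lgr6 had the same direction in each experiment. Its log2 fold change was 0.38 within experiment 1 (SE 0.18, 95% interval -0.04 to 0.81, edgeR adjusted p = 0.517). Within experiment 2 it was 0.48 (SE 0.19, 95% interval 0.06 to 0.91, unadjusted p = 0.0311, edgeR adjusted p = 1). Of the 5 members 0 passed within experiment 2 after adjustment, as did 0% of all genes in edgeR, while 1.72% had an unadjusted p under 0.05 and DESeq2 passed 1 gene. The effect in experiment 1 minus that in experiment 2 was -0.10 (SE 0.26), with a 95% interval of -0.70 to 0.50. In all 17 alternative fits the difference over both experiments kept its direction, from 0.35 to 0.57. It passed in none, the lowest adjusted p being 0.0625 (edgeR with no filter). Since the conditions did not overlap within either experiment, leaving out a library could hardly turn the sign.

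Lgr6 also stood lower in experiment 2, at 280 ± 63.3 CPM, than in experiment 1, at 344 ± 61.3 CPM (SD, n = 4 each). Experiment 2 over experiment 1 gave a log2 fold change of -0.30 (SE 0.13, edgeR adjusted p = 0.204). Of the markers of other cells, the endothelial and fibroblast lists had lower means in Treg-depleted libraries, the opposite direction to Lgr6. The melanocyte list had a lower mean too, but its conditions overlapped within each experiment. It summed to 58.6 and 80.9 CPM in Treg-depleted and 65 and 86.3 CPM in Treg-sufficient libraries of experiment 1. In experiment 2 these were 182 and 189 CPM against 128 and 392 CPM. Mitf (0.38) had a positive log2 fold change over both experiments, the other melanocyte markers negative ones. Neutrophil markers had a higher mean there, at 6.54 ± 3.18 CPM against 4.2 ± 0.928 CPM in Treg-sufficient libraries (SD, n = 4 each). In Treg-depleted and Treg-sufficient libraries, T cell markers averaged 1.66 and 1.53 CPM, and macrophage and Langerhans cell markers 3.92 and 3.99 CPM. Endothelial markers, all 5 with counts, summed in experiment 1 to 1.86 and 2.3 CPM in Treg-depleted libraries and 3.92 and 4.3 CPM in Treg-sufficient libraries. In experiment 2 they summed to 2.98 and 4.01 CPM in Treg-depleted libraries and 4.57 and 8 CPM in Treg-sufficient libraries. The conditions thus overlapped in neither experiment, at low sums, with Kdr and Emcn too low for the test. Of all genes, 19.1% were without overlap in this direction in experiment 1 and 15.9% in experiment 2. The next list had higher sums. The 10 fibroblast and dermal papilla markers, of which Twist2 was at 0 in every library, summed in experiment 1 to 31.2 and 31.9 CPM in Treg-depleted libraries and 43.7 and 99.7 CPM in Treg-sufficient libraries, without overlap. In experiment 2 they summed to 63.3 and 82.2 CPM in Treg-depleted libraries and 79.5 and 118 CPM in Treg-sufficient libraries, which overlap. Within this list Col1a1, Col1a2, Col3a1, Dcn and Lum had negative log2 fold changes in the fit over both experiments. Pdgfra (0.31), Thy1 (0.30) and Corin (0.72) had positive ones. Within experiment 2 Col1a2 (0.38) and Col3a1 (0.68) were positive as well, while Col1a1, Dcn and Lum stayed negative. The isthmus and upper follicle markers given above were also lower in the Treg-depleted libraries of experiment 1, where Lgr6 was higher, and overlapped in experiment 2. The part of these lists in the Lgr6 difference was not tested.

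Lgr5 (ENSMUSG00000020140), the gene whose reporter marked the sorted cells, lies on the minus strand at chr10:115450311-115587780 (GRCm38), where the annotation places A930009A15Rik on the opposite strand, with no shared exon. In experiment 1 it had 472 and 308 CPM in Treg-depleted libraries, against 401 and 491 CPM in Treg-sufficient libraries. In experiment 2 it had 518 and 477 CPM in Treg-depleted libraries, against 355 and 439 CPM in Treg-sufficient libraries. The conditions overlapped in experiment 1 and did not in experiment 2, where 16.7% of all genes were without overlap in this direction. Treg-depleted replicate 2, the library with the fewest genes detected, was the lowest of all 8.

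Over both experiments Lgr5 averaged 444 ± 92.9 CPM in Treg-depleted libraries and 422 ± 57.7 CPM in Treg-sufficient libraries (SD, n = 4 each). The log2 fold change was 0.07 (SE 0.18, 95% interval -0.34 to 0.47, edgeR adjusted p = 0.948). It was -0.19 within experiment 1 (SE 0.23, 95% interval -0.72 to 0.33) and 0.33 within experiment 2 (SE 0.23, 95% interval -0.20 to 0.85). The effects differed by -0.52 (SE 0.32, edgeR adjusted p = 0.97). Without Treg-depleted replicate 2 the value in experiment 1 was 0.05, the opposite sign. Lgr5 thus showed no detectable difference, at a precision that leaves room for values from -0.34 to 0.47 over both experiments.

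**Figure D2:**
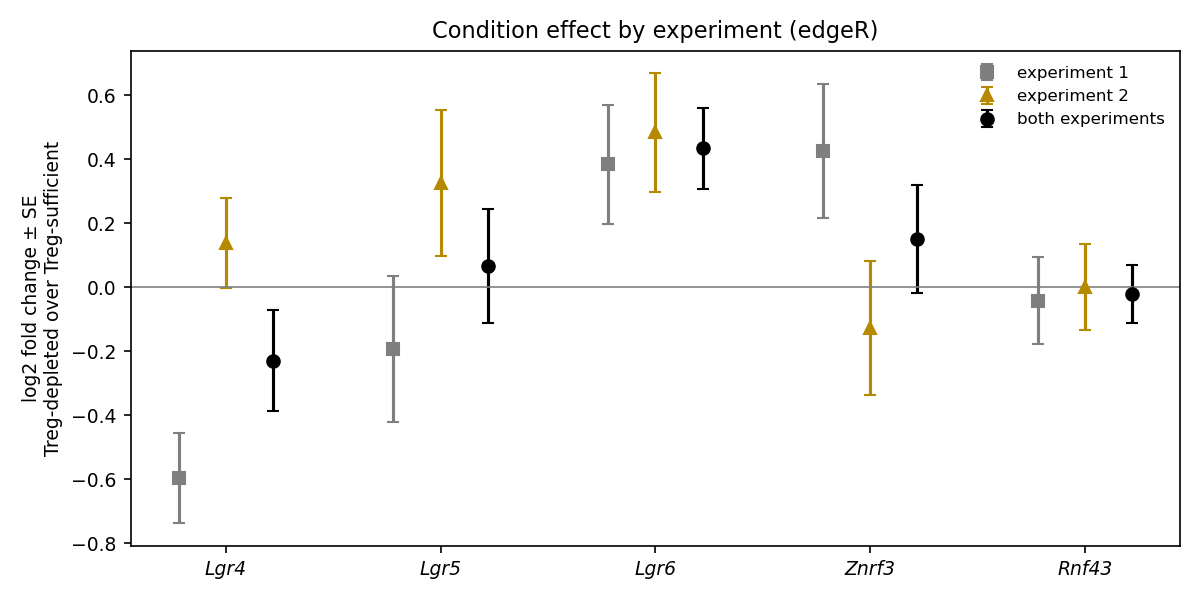
Log2 fold change, Treg-depleted over Treg-sufficient, of the 5 genes with its standard error (edgeR), within experiment 1 (grey squares), within experiment 2 (gold triangles) and over both experiments (black circles). Lgr6 is at 0.38, 0.48 and 0.43, Rnf43 lies within 0.05 of 0 in all 3, and Lgr4 is at -0.60 in experiment 1 and 0.14 in experiment 2.

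The shares of Lgr4 and Lgr6 in the receptor pool, the summed Lgr TPM, did not overlap between conditions in experiment 1. Shares of a single pool depend on each other. Of all genes, 18.2% were without overlap in the higher and 19.1% in the lower direction in that experiment. There Lgr4 made up 28.2 and 35.7% of the pool in Treg-depleted libraries, against 43 and 43.5% in Treg-sufficient libraries. Lgr6 made up 41.1 and 40.8% in Treg-depleted libraries, against 30.9 and 26% in Treg-sufficient libraries. In these Treg-depleted libraries Lgr6 was the most abundant receptor by TPM, at 218 and 160 TPM. Lgr4 had 150 and 140 TPM and Lgr5 163 and 92.7 TPM there. In the other 6 libraries Lgr4 was the most abundant.

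In experiment 2 the Lgr4 share lay lower in the Treg-depleted libraries, while the Lgr6 share overlapped. Lgr4 itself was not lower there, averaging 399 TPM in Treg-depleted libraries and 336 TPM in Treg-sufficient libraries of experiment 2. Lgr5 averaged 184 and 136 TPM, and Lgr6 181 and 119 TPM, in the same order. Lgr4 made up 51.7 and 52.8% in Treg-depleted libraries, against 55.4 and 58.2% in Treg-sufficient libraries. Lgr6 made up 22.4 and 24.9% in Treg-depleted libraries, against 23.5 and 17.1% in Treg-sufficient libraries. The Lgr5 share was 22.3 to 30.7% in Treg-depleted libraries and 21.1 to 30.5% in Treg-sufficient libraries over both experiments. These shares rest on 2 libraries a group in each experiment and were not tested. Ranks and shares also depend on the exon lengths used and on Lgr5 counts from an altered locus.

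**Figure D3:**
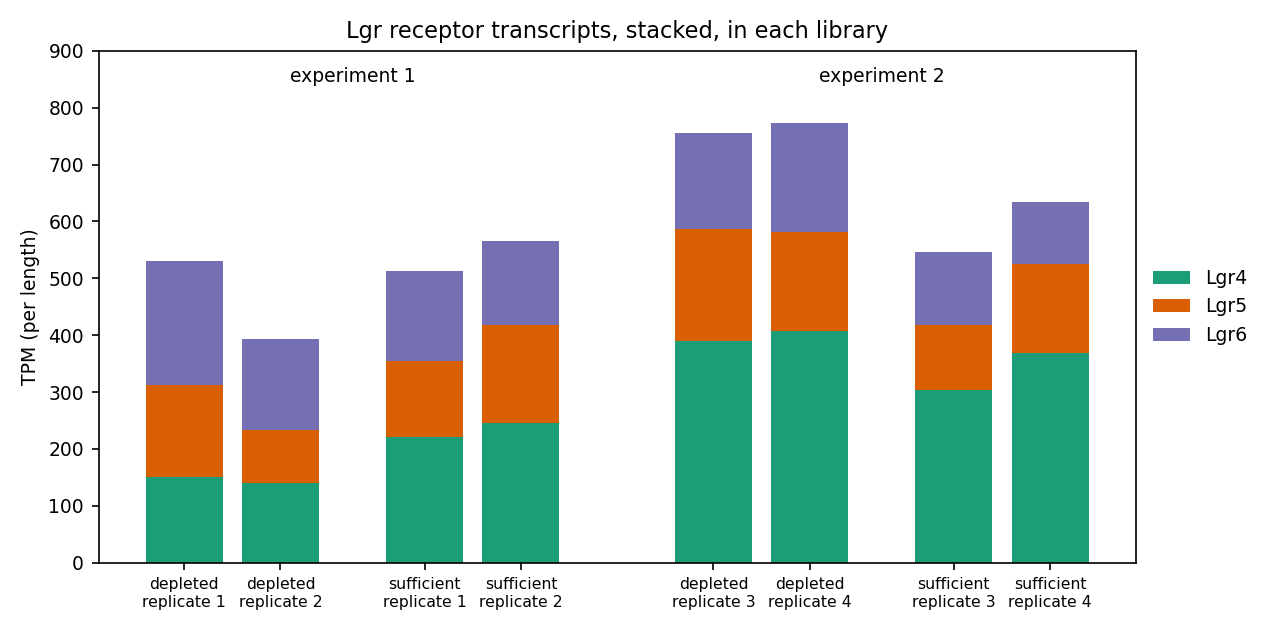
TPM of Lgr4, Lgr5 and Lgr6 stacked in each of the 8 libraries (linear axis from 0), Treg-depleted left of Treg-sufficient in each experiment. The summed height runs from 393 to 773 TPM; Lgr6 takes 41.1 and 40.8% of it in the Treg-depleted libraries of experiment 1 and 17.1 to 30.9% in the other 6 libraries.

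Znrf3 (ENSMUSG00000041961), the first of the ligases, lies on the minus strand at chr11:5276324-5444847 (GRCm38). In experiment 1 it had 83.9 and 55.7 CPM in Treg-depleted libraries, against 57.2 and 46.8 CPM in Treg-sufficient libraries. Experiment 2 gave 56.0 and 55.7 CPM in Treg-depleted libraries, against 65.4 and 56.6 CPM in Treg-sufficient libraries. Treg-depleted replicate 1 stood far above the other 3 libraries of its condition, which lay within 0.4 CPM of each other. The Treg-depleted libraries of experiment 2 lay below the Treg-sufficient ones by less than 1 CPM at the nearest pair, a non-overlap that 15.9% of all genes showed in this direction.

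Znrf3 averaged 62.8 ± 14.1 CPM in Treg-depleted libraries and 56.5 ± 7.6 CPM in Treg-sufficient libraries (SD, n = 4 each). The log2 fold change was 0.15 (SE 0.17, 95% interval -0.23 to 0.53, edgeR adjusted p = 0.848) over both experiments. Within experiment 1 it was 0.43 (SE 0.21, 95% interval -0.06 to 0.91, edgeR adjusted p = 0.53), and without Treg-depleted replicate 1 it was 0.07. Within experiment 2 it was -0.13 (SE 0.21, 95% interval -0.61 to 0.36). The effect in experiment 1 minus that in experiment 2 was 0.55 (SE 0.30, edgeR adjusted p = 0.95).

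Rnf43 (ENSMUSG00000034177), the other ligase, lies on the plus strand at chr11:87662722-87735539 (GRCm38), with the small RNA gene Gm25968 and the intronic transcript 1110028F11Rik inside it but sharing no exon. It was the steadiest of the 5 genes, with a coefficient of variation of 9.4% over the 8 libraries, against 16.8 to 33.7% for the other 4. In experiment 1 it had 48.7 and 41.8 CPM in Treg-depleted libraries, against 46.4 and 46.8 CPM in Treg-sufficient libraries. In experiment 2 it had 53.0 and 54.6 CPM in Treg-depleted libraries, against 54.9 and 52.7 CPM in Treg-sufficient libraries. The conditions overlapped in both experiments.

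The mean of Rnf43 was 49.5 ± 5.73 CPM in Treg-depleted libraries and 50.2 ± 4.26 CPM in Treg-sufficient libraries (SD, n = 4 each). Its log2 fold change was -0.02 (SE 0.09, edgeR adjusted p = 0.97), with a 95% interval of -0.23 to 0.18, the narrowest of the 5. All 4 libraries of experiment 2, at 53.8 ± 1.1 CPM, lay above all 4 of experiment 1, at 45.9 ± 2.92 CPM (SD, n = 4 each), as in 7.42% of all genes. Experiment 2 over experiment 1 gave a log2 fold change of 0.23 (SE 0.09, edgeR adjusted p = 0.187). Rnf43 made up 41.1 to 54.1% of the summed ligase TPM in Treg-depleted libraries and 49.4 to 54.6% in Treg-sufficient libraries.

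Over the 5 members the median log2 fold change was 0.07 between conditions, where the median of all tested genes was 0.0014. It was -0.04 within experiment 1 and 0.14 within experiment 2, where the medians of all genes were 0.01 and 0.0022. The members moved in no common direction: between conditions 3 were positive and 2 negative.

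For each member the 3 tested genes with the most similar course over the 8 libraries were found by the root mean square difference of their centred log2 CPM, among 12943 genes. The courses share the same 8 libraries and their depth, so they describe these libraries only. Nearest to Lgr4 were Farp1 (0.10), Lrig1 (0.12) and Capn6 (0.12), where the median gene differed by 0.55. Nearest to Lgr5 were Gm8113 (0.07), Mterf2 (0.08) and Col4a6 (0.08), a collagen chain of basement membranes, where the median gene differed by 0.35. Lgr6 had no gene as close: Morn1, Rabepk and Fam129c differed by 0.14, 0.14 and 0.15, where the median gene differed by 0.38. Znrf3 ran closest to Gata3 (0.06), a transcription factor of the inner root sheath and epidermis, then to Dnajc27 and Rpl17-ps8 (both 0.10), where the median gene differed by 0.33. Rnf43 ran closest to Pacs2 (0.03), Cpsf6 (0.03) and R3hdm1 (0.04), where the median gene differed by 0.27.

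Around the 5 members, 60 genes of the pathway and of related families were read in 7 lists, and 49 of them had enough counts for the test. Between conditions 0 of the 49 passed after adjustment in edgeR, as did 0 within each experiment and 0 for the difference between experiments. Of all genes 0.599% passed within experiment 1 and 0% in the other 3 tests. Other fits gave more calls: DESeq2 passed 1 of the 49 between conditions, 3 within experiment 1 and 1 for the difference between experiments, and with no filter 4, 4 and 2 passed, with 2 more within experiment 2. Within experiment 1, 3 passed without the 2 libraries with Xist reads, 1 without the 2 with the fewest genes detected and 1 without Treg-depleted replicate 2. At an unadjusted p under 0.05 between conditions, 1 was higher and 4 were lower in Treg-depleted libraries, where 3.46% and 3.59% of all genes were. The median log2 fold change of the 49 was -0.0025 between conditions, -0.0024 within experiment 1 and -0.01 within experiment 2.

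The ligands of the receptors were scarce in the sorted cells. Rspo1 was the 1 R-spondin with enough counts for the test. In experiment 1 Rspo1 had 1.17 and 2.43 CPM in Treg-depleted libraries, against 0.654 and 1.09 CPM in Treg-sufficient libraries. Experiment 2 gave 1.70 and 1.81 CPM in Treg-depleted libraries, against 3.81 and 1.92 CPM in Treg-sufficient libraries. The Treg-depleted libraries lay above the Treg-sufficient ones in experiment 1, as in 18.2% of all genes, and below them in experiment 2, as in 15.9%. The log2 fold change of Rspo1 over both was 0.13 (SE 0.48, edgeR adjusted p = 0.962). Rspo3 reached 0.781 CPM in Treg-depleted libraries and 1.03 CPM in Treg-sufficient libraries at most, while Rspo2 and Rspo4 stayed at or under 0.284 CPM in every library. The hormone receptors nearest to the Lgr family in structure, Tshr, Fshr, Lhcgr, Rxfp1 and Rxfp2, were too low for the test in all 5 cases, with Tshr highest at 0.419 CPM.

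The 12 Wnt receptors and co-receptors, whose Frizzled members are the proteins that Znrf3 and Rnf43 remove, all had enough counts. Between conditions 7 had positive and 5 negative log2 fold changes, with a median of 0.04. Fzd7 and Fzd2 were the most abundant, at 307 and 188 TPM on average over all libraries. Their log2 fold changes were -0.0025 (SE 0.12) for Fzd7 and 0.20 (SE 0.16) for Fzd2. Fzd10 was the 1 gene of the list with an unadjusted p under 0.05. In experiment 1 Fzd10 had 6.63 and 16.4 CPM in Treg-depleted libraries, against 25.8 and 12.4 CPM in Treg-sufficient libraries. In experiment 2 these were 14.5 and 18.5 CPM in Treg-depleted libraries, against 35.5 and 31.5 CPM in Treg-sufficient libraries. Fzd10 was thus without overlap in experiment 2 only, as 15.9% of all genes were in this direction, and its log2 fold change over both was -0.88 (SE 0.31, unadjusted p = 0.0191, edgeR adjusted p = 0.695). Without the 2 libraries with Xist reads, which leaves 1 library of each condition in experiment 1, Fzd10 passed there (-2.0 against -0.74 with all libraries, edgeR adjusted p = 0.0179). With no filter it passed over both experiments (adjusted p = 0.000103) and within experiment 2 (0.023).

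The 12 genes of the Dishevelled and destruction complex list all had enough counts, with 5 positive and 7 negative values. Ctnnb1, which encodes beta-catenin, averaged 1150 TPM over all libraries with a log2 fold change of -0.05 (SE 0.11). Csnk1a1, a kinase of the destruction complex, averaged 267 TPM, with a log2 fold change of 0.04 (SE 0.10). Dvl2, a Dishevelled protein that relays the signal from Frizzled, had 43.9 and 37.0 CPM in Treg-depleted libraries of experiment 1, against 61.0 and 60.0 CPM in the Treg-sufficient ones. Its log2 fold change there was -0.58 (SE 0.15, edgeR adjusted p = 0.157; DESeq2 adjusted p = 0.0297; edgeR with no filter, 0.0473), and it was -0.09 (SE 0.15) within experiment 2. For Csnk1e, a kinase that phosphorylates Dishevelled, the values were -0.40 (SE 0.13, edgeR adjusted p = 0.282) within experiment 1 and -0.04 (SE 0.13) within experiment 2. The 8 nuclear factors held no gene with an unadjusted p under 0.05 in these tests, and the most abundant, Pygo2 and Tcf7, had log2 fold changes of -0.03 (SE 0.09) and 0.17 (SE 0.19) between conditions.

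The 10 feedback and target genes of Wnt signalling spread widely in experiment 1. Within experiment 1, 6 were positive and 4 negative in Treg-depleted libraries with a median of 0.34, and within experiment 2, 1 was positive and 9 negative with a median of -0.30. Apcdd1, a membrane-bound Wnt inhibitor, was the 1 gene of the 60 with an unadjusted p under 0.05 in both experiments. In experiment 1 Apcdd1 had 27.1 and 39.5 CPM in Treg-depleted libraries, against 78.5 and 60.8 CPM in Treg-sufficient libraries. In experiment 2 these were 42.1 and 45.8 CPM in Treg-depleted libraries, against 78.6 and 81.6 CPM in Treg-sufficient libraries. All 4 Treg-depleted libraries lay below all 4 Treg-sufficient ones, as in 1.06% of all genes. Its log2 fold change over both was -0.97 (SE 0.14, unadjusted p = 8.89e-05, edgeR adjusted p = 0.695; DESeq2 adjusted p = 7.68e-05). With no filter, a fit in which 820 genes passed between conditions, Apcdd1 passed in edgeR over both experiments (adjusted p = 3.31e-09). With no filter it also passed within experiment 1 (edgeR adjusted p = 3.63e-06) and experiment 2 (0.00638). Within experiment 1 Apcdd1 passed in DESeq2 (-1.07, adjusted p = 0.000618). In edgeR it passed there without Treg-depleted replicate 2 (-1.39, adjusted p = 0.0186), without the 2 libraries with the fewest genes detected (-1.38, 0.022) and without the 2 with Xist reads (-1.57, 0.0123).

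Axin2, the scaffold gene read most often as a sign of Wnt signalling, had 41.9 and 53.0 CPM in Treg-depleted libraries of experiment 1, against 26.9 and 33.9 CPM in the Treg-sufficient ones. In experiment 2 it had 30.8 and 25.3 CPM in Treg-depleted libraries, against 34.6 and 30.5 CPM in Treg-sufficient libraries. The log2 fold change was 0.64 within experiment 1 (SE 0.20, edgeR adjusted p = 0.248) and -0.22 within experiment 2 (SE 0.20), and the difference of these was 0.86 (SE 0.28, edgeR adjusted p = 0.684). Myc, a growth regulator, had 105 and 155 CPM in Treg-depleted libraries of experiment 1, against 51.9 and 47.4 CPM in the Treg-sufficient ones, a log2 fold change of 1.39 (SE 0.28, edgeR adjusted p = 0.0792; DESeq2 adjusted p = 0.000293). Within experiment 2 it was -0.19 (SE 0.28). DESeq2 also passed Myc for the difference between experiments (1.57, adjusted p = 0.0242), which edgeR did not (adjusted p = 0.444). With no filter Myc passed in edgeR over both experiments (0.59, adjusted p = 0.00256). With no filter it also passed within experiment 1 (edgeR adjusted p = 1.38e-09) and for the difference between experiments (8.37e-06). In the same comparison in experiment 1 Notum, a secreted enzyme that inactivates Wnt proteins, had 1.35 (SE 0.50), and Nkd2, which binds Dishevelled, had -1.95 (SE 0.72). Nkd2 passed there without the 2 libraries with Xist reads (-3.75, edgeR adjusted p = 0.0373) and with no filter (-1.99, 0.00915). Tnfrsf19, a receptor gene of follicle stem cells, had 0.50 (SE 0.28) in experiment 1 and -0.54 (SE 0.28) in experiment 2. The difference of these was 1.04, with an unadjusted p under 0.05 in edgeR. It passed after adjustment only with no filter (0.99, edgeR adjusted p = 0.0151). Ccnd1, which encodes cyclin D1, had -0.28 (SE 0.17) over both experiments.

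Of 9 related membrane RING ligases 6 had enough counts. Rnf13, a ligase of endosomes and lysosomes, had 96.2 and 95.3 CPM in Treg-depleted libraries of experiment 1, against 74.4 and 75.5 CPM in the Treg-sufficient ones. Experiment 2 gave 94.5 and 74.4 CPM in Treg-depleted libraries, against 71.9 and 75.1 CPM in Treg-sufficient libraries. Its log2 fold change over both was 0.28 (SE 0.10, unadjusted p = 0.0222, edgeR adjusted p = 0.695). Rnf130 and Rnf167 were the most abundant, at 146 and 114 TPM on average, with log2 fold changes of -0.07 (SE 0.09) and -0.0016 (SE 0.10) between conditions.

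Between experiments 3 of the 49 tested pathway genes passed, all higher in experiment 2 than in experiment 1, where 0.876% of all genes passed in that direction. These were Tcf7l1, a nuclear TCF factor of follicle stem cells (log2 fold change 0.78, SE 0.12, edgeR adjusted p = 0.044), Ccnd1 (0.85, SE 0.17, edgeR adjusted p = 0.0481) and Rnf130 (0.69, SE 0.10, edgeR adjusted p = 0.044). These calls lay close to the threshold of 0.05, and most omissions of a single library lost some or all of them. Leaving out any 1 of 6 libraries (each Treg-depleted one, Treg-sufficient replicate 2 or 4) left 0 of the 49, without Treg-sufficient replicate 3 there was 1, Rnf130, and without Treg-sufficient replicate 1 there were 6, these 3 among them. Without the 2 libraries with Xist reads 0 passed, and likewise without the 2 with the fewest genes detected, while DESeq2 and edgeR with no filter each passed 11, these 3 among them.

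**Figure D4:**
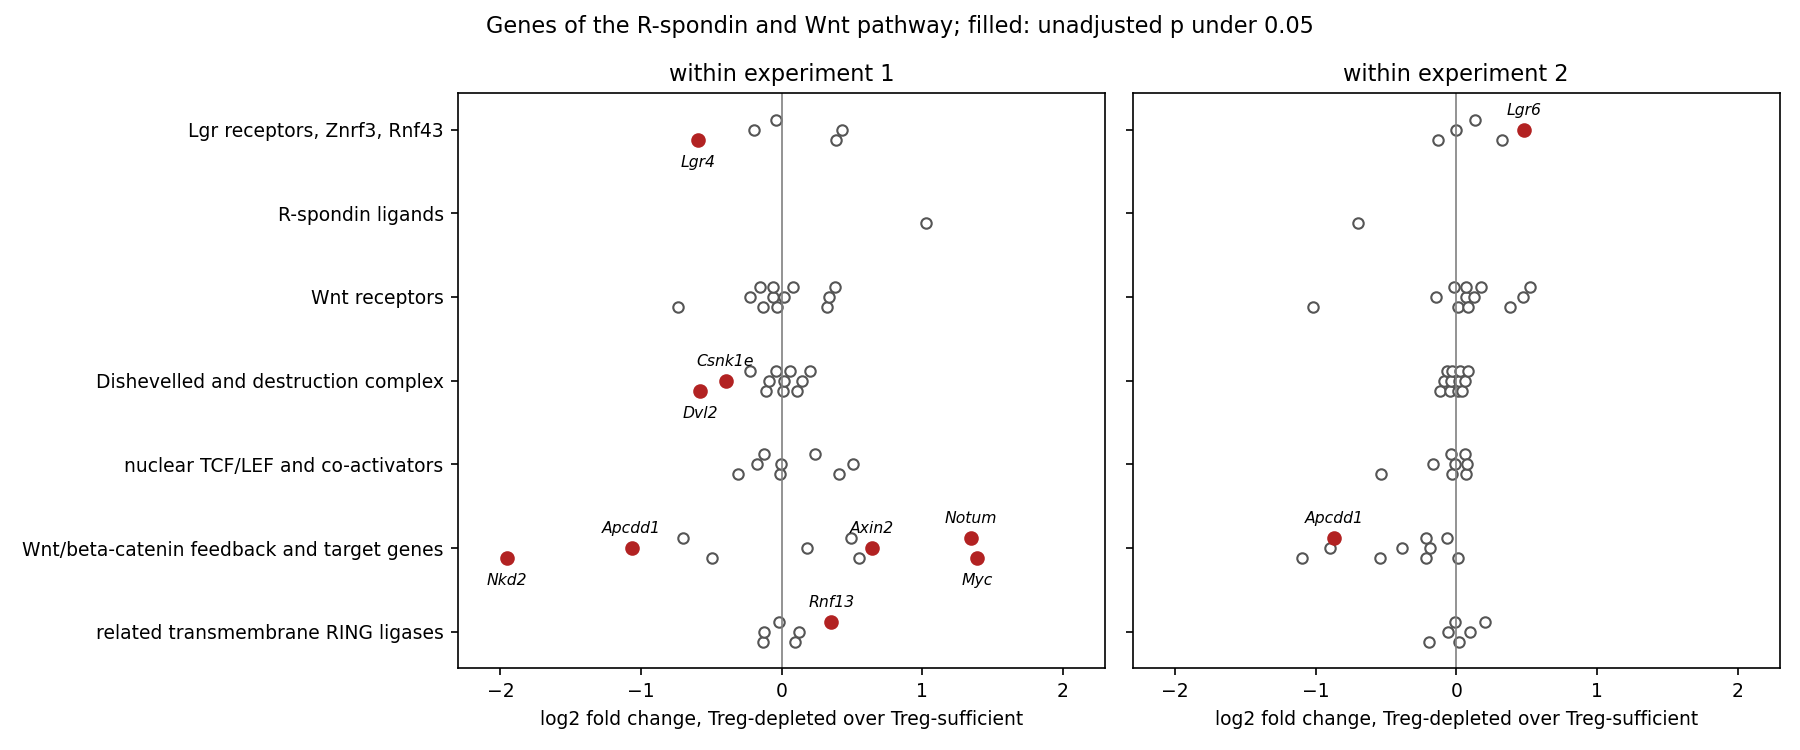
Log2 fold change, Treg-depleted over Treg-sufficient (edgeR), of the 5 members and the 49 tested pathway genes within experiment 1 (left) and within experiment 2 (right), one row for each list that held a tested gene; filled points have an unadjusted p under 0.05, and rows are spread vertically for legibility only. The target genes spread from -1.95 to 1.39 in experiment 1 and from -1.10 to 0.01 in experiment 2, and Apcdd1 is filled in both.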

How the data were processed

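The authors deposited raw, unnormalized counts of reads per gene. RNA came from frozen sorted cells by RNeasy columns, and TruSeq Stranded mRNA libraries were sequenced, per the labels' protocols. The submitters' processing notes name TopHat2, SAMtools, HTSeq, DESeq2 and the build GRCm38.p4, without roles. Whether counting used strand, and with which annotation, is not stated there. The table lists 46078 genes and 5 tallies of unassigned reads, which were left out of library sizes: reads in no gene made up 6.63 to 10.8%, multiply aligned reads 26.2 to 30.6% and ambiguous reads 2.72 to 3.01%. Depth was 22330729 to 29975347 counts per library.

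Symbols, coordinates and exon lengths came from GENCODE M21 on GRCm38, possibly another release than the counting used, and paired 45143 identifiers with a symbol. Tests were run with edgeR 4.0.16 in R 4.3.3 (TMM factors, filterByExpr with a minimum count of 10, quasi-likelihood F-test, Benjamini-Hochberg over 17016 genes, threshold 0.05). One model held condition and experiment, and another the 4 groups of condition by experiment, which share one estimate of the spread. The standard error is the log2 fold change divided by the square root of F. The code was tested on simulated data. Alternatives used DESeq2 1.42.0, limma 3.58.1, other scaling, no filter, no experiment term, a replicate block and subsets of libraries.

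Named are the 5 members, the genes of each list with an unadjusted p under 0.05 between conditions, within an experiment or for the difference between experiments, the 2 most abundant of each list, and the 3 genes nearest to each member (mean count of at least 50, pseudocount 0.5 CPM). Tcf7l1 is named beyond this rule, after its values were seen. The members and lists were chosen with earlier results of these data known.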

Additional observations from a re-analysis of the deposited data

Results flagged for a closer look

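Of 56 groups of 4 libraries examined, 7 held a library that stood apart from the other 3 of its condition (Dixon's test at 95%); chance alone gives this in about 1 in 20 groups. Znrf3 was at 83.9 CPM in Treg-depleted replicate 1, against 55.7 to 56 CPM in the other 3, and without it the Znrf3 difference within experiment 1 was 0.07 in place of 0.43 on the log2 scale. Rnf13 was at 74.4 CPM in Treg-depleted replicate 4, against 94.5 to 96.2 CPM in the others. Rspo3 was at 0.781 CPM in Treg-depleted replicate 4, against 0 to 0.0387 CPM, and at 1.03 CPM in Treg-sufficient replicate 3, against 0.0331 to 0.137 CPM. Notum was at 3.81 CPM in Treg-sufficient replicate 3, against 1.45 to 1.84 CPM. In Treg-sufficient replicate 2, the library with the most Xist reads, Fzd7 was at 473 CPM, against 362 to 380 CPM in the others, and Apcdd1 at 60.8 CPM, against 78.5 to 81.6 CPM.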

How the results depend on the processing

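Lgr6 kept its direction between conditions in 17 of 17 alternatives (0.35 to 0.57). Lgr4 did so within experiment 1 in 15 of 15 (-0.68 to -0.58) and for the difference between experiments in 15 of 15 (-0.82 to -0.66). Where conditions did not overlap, as for Lgr6 in each experiment and Lgr4 in experiment 1, leaving out a library could hardly turn the sign. Such omissions therefore say little about the direction. Lgr4 within experiment 1 passed with no filter (-0.63, adjusted p = 0.0322) and in DESeq2 (-0.61, adjusted p = 0.00332). The higher Lgr4 of experiment 2 missed the threshold in 10 of 15 alternatives: upper-quartile factors (0.88), without the 2 libraries with Xist reads (0.92), without the 2 libraries with the fewest genes (0.96) and 7 of the 8 single omissions (0.79 to 1.01). Counts of genes passing moved most. Between conditions they were 820 with no filter (339 higher, 481 lower) and 85 in DESeq2 (48 and 37), against 0. Within experiment 1 they were 1152 with no filter, 722 in DESeq2, 504 without the Xist libraries and 593 without the fewest-gene libraries, with single omissions giving 16 to 442, against 102; limma-voom gave 44 higher and 36 lower, against 37 and 65. Within experiment 2 they were 132 with no filter and 1 in DESeq2, against 0. For the difference between experiments they were 534, 179 and 121 (no filter, DESeq2, without Xist libraries) and 0 to 15 over single omissions, against 0. Between experiments they were 152 with upper-quartile factors, 2443 with no filter, 2143 in DESeq2, 2 without the Xist libraries, 0 without the fewest-gene libraries and 0 to 679 over single omissions, against 268. Of the 49 pathway genes, 0 to 4 passed between conditions and within experiment 1, 0 to 2 within experiment 2 and for the difference between experiments, and 0 to 11 between experiments over the alternatives. The cause of these shifts was not tested. Where 1 library of a group was left, it was assumed to vary like the others.

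Signs turned only for log2 fold changes near 0 or with wide errors. Without the Xist libraries these were Rnf43 between conditions (0.0081), within experiment 1 (0.028), within experiment 2 (-0.0015) and for the difference between experiments (0.029), Lgr5 within experiment 1 (0.19), Rspo1 (-0.26), Fzd7 (0.088), Csnk1a1 (-0.051) and Rnf167 (0.061). Without the fewest-gene libraries they were Rnf43 in the same tests except experiment 2 (0.026, 0.040 and 0.028), Lgr5 within experiment 1 (0.060), Csnk1a1 (-0.034), Rnf167 (0.058) and Tnfrsf19 (0.22). limma-voom gave Rspo1 -0.040, Fzd7 0.0049 and Tnfrsf19 0.0064, the fit with no experiment term gave Rspo1 -0.073, and DESeq2 size factors and DESeq2 gave Rnf43 within experiment 2 -0.0055 and -0.0054. Single omissions between conditions spanned 0 for Lgr5 (-0.067 to 0.22), Znrf3 (-0.048 to 0.22), Rnf43 (-0.073 to 0.011), Rspo1 (-0.28 to 0.51), Fzd7 (-0.064 to 0.093), Csnk1a1 (-0.032 to 0.084), Ctnnb1 (-0.083 to 0.0035), Pygo2 (-0.10 to 0.018), Tnfrsf19 (-0.27 to 0.21) and Rnf167 (-0.092 to 0.061). They did so within experiment 1 for Lgr5 (-0.56 to 0.050) and Rnf43 (-0.18 to 0.030), within experiment 2 for Rnf43 (-0.025 to 0.022), for the difference between experiments for Lgr6 (-0.30 to 0.068) and Rnf43 (-0.18 to 0.032), and between experiments for Lgr5 (-0.070 to 0.21) and Znrf3 (-0.16 to 0.14).

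Libraries with the same number shared an experiment but nothing in the labels pairs them. Their deviations from the condition means correlated at 0.2 to 0.411, and within an experiment at -0.211 and -0.217. The first values include the shared experiment. With 2 libraries a group, the value within an experiment is the same for both replicate numbers by construction. Neither can therefore decide whether libraries were paired. With the replicate block 0 genes passed, as without it; the values of Lgr6 (0.44), Lgr4 (-0.23) and Lgr5 (0.059) kept their direction, while Fzd7 (0.0044) and Tnfrsf19 (0.015) turned. Counting error was at most 1.34% for the 3 receptors, below their spread between libraries. With 2 libraries per group and experiment, that spread and not depth limited the comparison of the receptors. For the ligases counting error reached 3.38%, and some groups spread less than that, as Rnf43 did at 2.04% over experiment 2. The 3.38% was for 876 Rnf43 counts in Treg-depleted replicate 2. Libraries of experiment 2 held 1369 to 1591 Rnf43 counts, so counting error was lower there.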
